A study of Mus musculus with 5 samples.

Results

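The Hox genes of the 4 mouse clusters were followed across 5 RNA sequencing libraries. Members were taken by gene symbol, as Hox followed by the cluster letter a, b, c or d and a paralog number, which gave 39 of the 34970 symbols in the count table. The family was chosen with earlier results of these data known. The series concerns the direct conversion of fibroblasts into macrophages. It holds 1 library each of induced pluripotent stem cells (iPSC), embryonic fibroblasts of the mouse (MEF), a myeloid-like cell complex (MCC), bone marrow (BM) and blood cells (PB, CD45-positive by the design text), all labelled wild type. How the MCC cells were made, from which fibroblasts, and from which part of the embryo the MEF came are not stated in the labels. With 1 library per group there was no replicate check and no test. Values compare libraries, and folds carry 95% counting intervals in brackets that cover counting error only.

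Hox genes encode homeodomain transcription factors that give cells their position along the body. They lie in a row in each cluster, and their order along the chromosome follows the order of their domains. Low paralog numbers are used in the hindbrain and neck, middle ones in the trunk, and high ones in the lumbar and tail region, the genital area and the outer limb. Fibroblasts taken from different body sites are known to keep distinct Hox patterns in culture, and a few genes, among them Hoxa9 and Hoxb4, are also used by blood stem and progenitor cells. The question asked of these data was whether MCC carried the positional pattern of MEF.

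Upstream sequences are shown for a pair of genes of paralog number 13 that were near 0 in MCC and present in MEF, and for a pair that was higher in MCC, chosen after their values were seen. RefSeq promoter windows on GRCm38.p6 were matched for 22 of the 39 genes. Each line gives the 250 bases before the annotated start, in the direction of the gene. Capitals mark matches on either strand to the TATA box core TATAAA, the CCAAT box CCAAT, the Pbx-Hox composite site TGATNNAT or TTTATG, a core bound by posterior Hox and Cdx proteins.
Hoxd13: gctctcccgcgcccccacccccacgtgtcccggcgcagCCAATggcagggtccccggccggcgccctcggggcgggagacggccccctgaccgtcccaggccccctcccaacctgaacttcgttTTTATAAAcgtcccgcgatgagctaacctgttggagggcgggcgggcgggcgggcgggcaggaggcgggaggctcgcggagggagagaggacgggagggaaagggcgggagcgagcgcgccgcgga
Hoxa13: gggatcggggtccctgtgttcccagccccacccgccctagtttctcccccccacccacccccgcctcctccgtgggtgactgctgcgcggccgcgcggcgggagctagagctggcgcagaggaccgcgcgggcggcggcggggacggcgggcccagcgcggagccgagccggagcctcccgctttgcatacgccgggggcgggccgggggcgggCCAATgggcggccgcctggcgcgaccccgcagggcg
Hoxd8: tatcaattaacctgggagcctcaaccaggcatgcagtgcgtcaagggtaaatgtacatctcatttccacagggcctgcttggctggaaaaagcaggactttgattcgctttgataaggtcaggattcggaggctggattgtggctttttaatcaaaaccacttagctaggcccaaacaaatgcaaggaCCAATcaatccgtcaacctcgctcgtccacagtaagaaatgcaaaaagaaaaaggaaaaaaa
Hoxa2: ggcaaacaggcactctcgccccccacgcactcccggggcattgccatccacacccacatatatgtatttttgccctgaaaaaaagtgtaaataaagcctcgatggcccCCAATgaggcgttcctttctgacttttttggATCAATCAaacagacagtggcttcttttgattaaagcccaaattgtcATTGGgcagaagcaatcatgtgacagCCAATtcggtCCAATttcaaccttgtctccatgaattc
The windows are chr2:74667975-74668224 (plus strand), chr6:52260881-52261130 (minus), chr2:74704365-74704614 (plus) and chr6:52164832-52165081 (minus). The Hoxd13 and Hoxa13 windows had a GC content of 74.4% and 80.0%, with 31 and 35 CpG dinucleotides. The Hoxd8 and Hoxa2 windows had 44.4% and 46.4%, with 6 CpGs each. Over 32851 windows of that length the medians were 52.4% and 6, and over the 24 Hox windows 58.6% and 12.5. High GC was not restricted to number 13, since the Hoxd1 window had 71.6%. Hoxd13 held a TATAAA match that reads on both strands in an overlapping stretch, and Hoxa2 held a TGATNNAT match. TATAAA was found in 12.4% of all windows, CCAAT in 33.8%, TGATNNAT in 7.68% and TTTATG in 10.8%, against 4, 14, 4 and 5 of the 24 Hox windows. These matches are letters in a window, and no binding was measured.

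The libraries held between 30078366 and 47557598 counted reads. Levels are given as CPM, each gene's reads relative to library size after scaling by the trimmed mean of M values. For a gene with 0 reads, a floor of 3 reads was used in ratios, which stands for 0.1004 CPM in PB, 0.0736 in BM, 0.0694 in MCC and MEF, and 0.0574 in iPSC. Of 25 fibroblast and matrix markers, 25 were at 1 CPM or more in both MCC and MEF, summed to 45456 and 48797 CPM, against 5107 CPM in iPSC, 2167 in BM and 2118 in PB. The 15 macrophage markers summed to 15082 CPM in MCC and 17.4 in MEF, where Adgre1 and Fcgr1 had 0 reads. The 12 pluripotency markers summed to 3367 CPM in iPSC and to 68.0 and 35.9 CPM in MCC and MEF. Neutrophil markers summed to 66957 CPM in BM and 6245 in PB, and lymphocyte markers to 683 and 1710 CPM. MCC thus held fibroblast and macrophage transcripts at once. In such bulk RNA, fewer fibroblasts and less RNA per cell cannot be told apart.

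Hox transcripts were abundant as a family in MEF, iPSC and MCC and sparse in blood and marrow. The 39 genes summed to 304 CPM in MEF, 176 in iPSC, 152 in MCC, 14.7 in BM and 3.08 in PB. At 1 CPM or more stood 32 members in MEF, 30 in iPSC, 26 in MCC, 3 in BM and 1 in PB. Over all genes in the table the share at that level was similar in the 5 libraries, at 38.3%, 41.4%, 39.9%, 39.6% and 40%. At 5 CPM or more stood 16, 14, 8, 1 and 0 members, beside 30.5%, 31.7%, 32%, 30.3% and 29.3% of all genes. Of the 39 members, 21 reached 5 CPM in some library, 18 stayed below it, and 6 of those stayed below 1 CPM throughout. Hoxb1, a hindbrain gene, had 0 reads in MCC, MEF and PB, 5 reads in BM and 10 in iPSC. MEF was the highest library for 22 members, iPSC for 10, MCC for 6 and BM for 1 (Hoxb4).

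**Figure D1:**
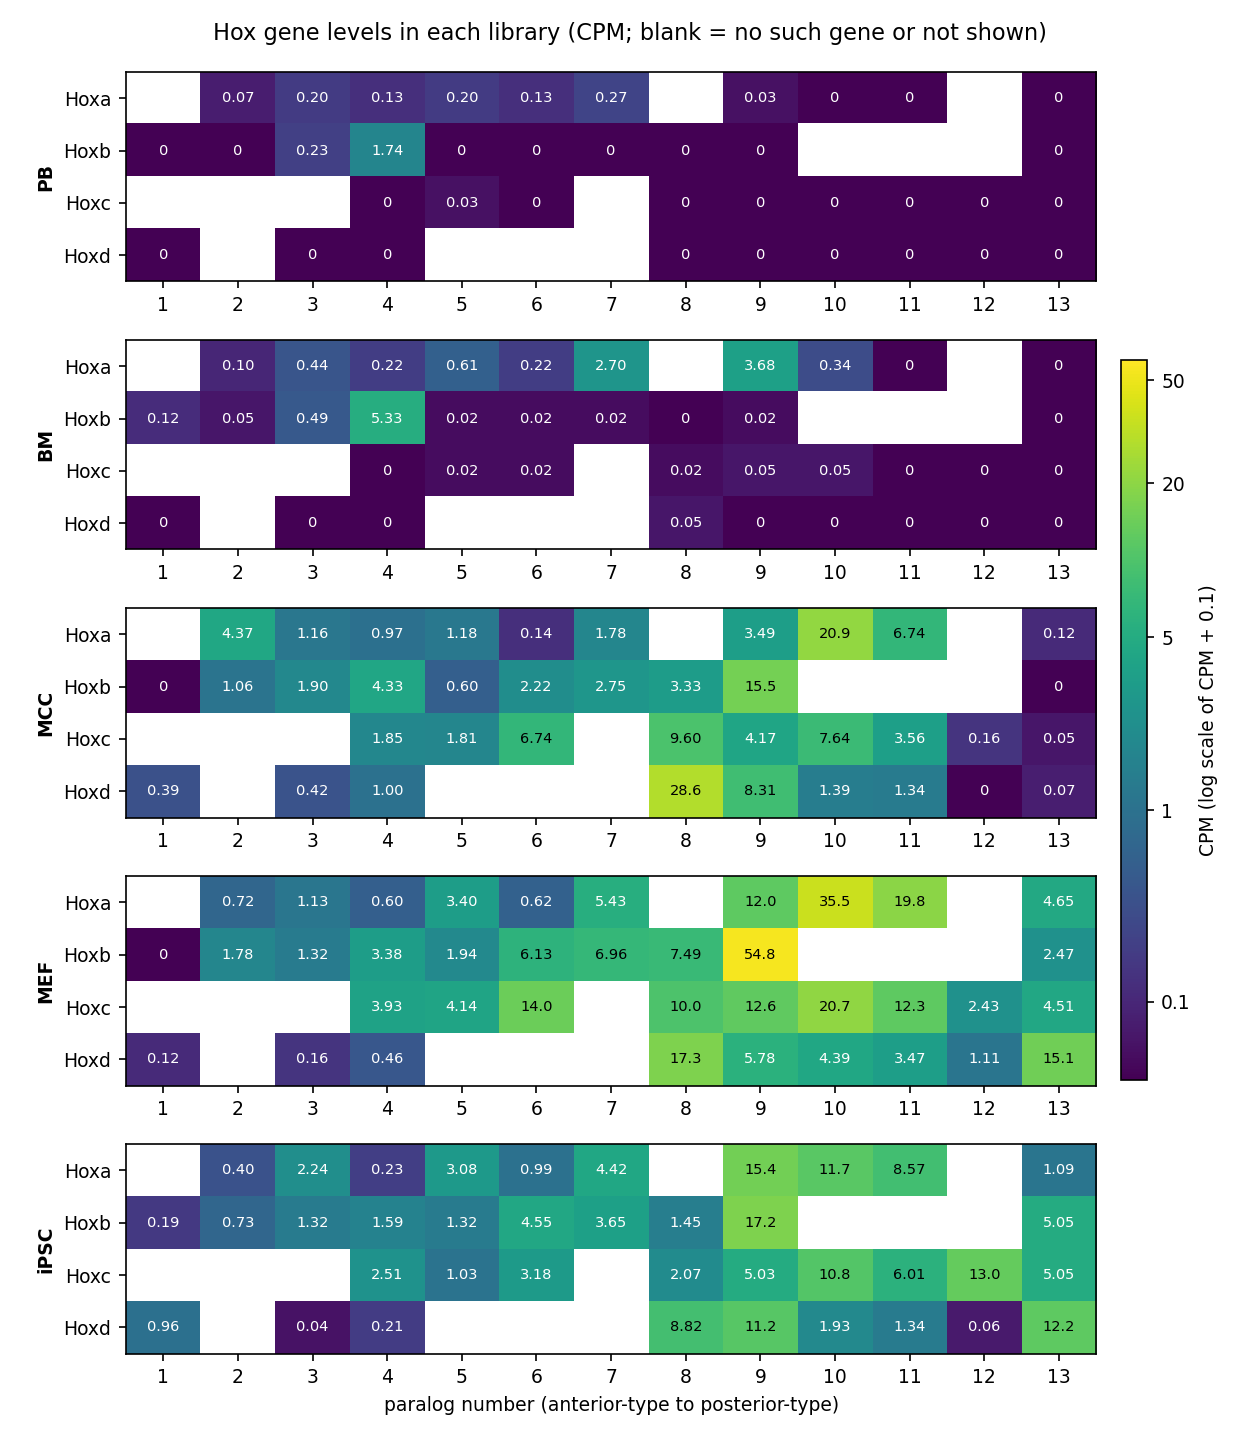
Level of 38 of the 39 Hox genes in CPM, as colour on a log scale and as a printed value, with clusters as rows, paralog numbers as columns and 1 panel per library. The columns for numbers 12 and 13 hold values in MEF and iPSC but are close to 0 in MCC, where Hoxd8 at 28.6 CPM is the highest member, while PB and BM show Hoxb4 and part of the Hoxa cluster.

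The most posterior genes, paralog numbers 12 and 13, were nearly missing from MCC and present in MEF. All 6 were lower in MCC: they had 17 reads together in MCC against 1308 in MEF, 0.393 against 30.2 CPM, 76.9-fold (47.8 to 132) lower. Without Hoxd13 the other 5 had 14 against 656 reads, 46.8-fold (27.7 to 86.1) lower. Numbers 12 and 13 were set apart from 9 to 11 after the values were seen. Since the fibroblasts that gave MCC are not stated, a different set of starting cells and a change during conversion cannot be told apart here.

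Hoxd13 marks the outer limb, where it patterns the digits. It lies at the 5' end of its cluster on mm10 chromosome 2, 74668310 to 74671599. It had 3 reads (0.0694 CPM) in MCC, 652 (15.1 CPM) in MEF, 640 (12.2 CPM) in iPSC and 0 in BM and PB. MEF and iPSC were thus high and MCC was at a trace, 217-fold (74.0 to 1056) lower than MEF. It was the single Hox gene that was at least 4-fold lower in MCC than in MEF among those at 5 CPM or more in either library. Of 16 members at that level, 1 was lower and 0 were higher by that rule, beside 2.71% lower and 8.05% higher of the 11720 genes at that level. All 16 reached 5 CPM in MEF and 8 of them in MCC, so none entered this count through MCC alone. Hoxd13 entered through its level in MEF, so the minimum level set its direction in the count.

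Hoxa13, which acts beside Hoxd13 in the hand and foot plate, had 201 reads in MEF, 57 in iPSC and 5 in MCC (4.65, 1.09 and 0.116 CPM), 40.2-fold (16.9 to 125) lower in MCC than in MEF. Hoxc13, a gene of hair and nail, had 195, 264 and 2 reads in the same order (4.51, 5.05 and 0.0463 CPM), 97.4-fold (26.6 to 810) lower. Hoxb13, a gene of the tail bud and the prostate, had 107, 264 and 0 reads (2.47, 5.05 and 0 CPM), at least 35.6-fold lower. None of these genes had a read in BM or PB. All 4 clusters therefore shared the low level of number 13 in MCC, although these 3 genes did not reach 5 CPM in MCC or MEF. Hoxc12 had 7 reads in MCC and 105 in MEF (0.162 and 2.43 CPM), 15.0-fold (7.02 to 38.2) lower, and 681 reads (13.03 CPM) in iPSC. Hoxd12, the neighbour of Hoxd13, had 0 reads in MCC, 48 (1.11 CPM) in MEF and 3 in iPSC, and was at least 15.99-fold lower in MCC than in MEF. With no minimum level, 7 of 38 members were at least 4-fold lower in MCC, beside 3.98% of 22256 genes. They were these 6 and Hoxa6, a trunk gene with 6 against 27 reads, 4.50-fold (1.82 to 13.3) lower.

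Genes numbered 9 to 11 were present in MCC at reduced levels, apart from Hoxd9. The 10 genes summed to 181 CPM in MEF against 73.1 in MCC, 2.48-fold (2.38 to 2.59) lower, and 9 of 10 had a ratio below 1. Hoxb9, a thoracic gene and the highest Hox gene of MEF per kb of exon, stood at 15.5 CPM in MCC, 54.8 in MEF, 17.2 in iPSC, 0.0245 in BM and 0 in PB. It was 3.54-fold (3.24 to 3.86) lower in MCC than in MEF. Hoxa10, a gene of the lumbar region and the uterus, stood at 20.9 CPM in MCC, 35.5 in MEF, 11.7 in iPSC, 0.344 in BM and 0 in PB. It was lower by the smallest factor of this group, 1.69-fold (1.56 to 1.84).

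Hoxa9, used in blood progenitors, had 3.49 CPM in MCC, 12.05 in MEF, 15.4 in iPSC, 3.68 in BM and 0.0335 in PB, and was 3.45-fold (2.87 to 4.16) lower in MCC than in MEF. Hoxa11, a gene of the forearm and shank, had 6.74, 19.8 and 8.57 CPM in MCC, MEF and iPSC and 0 reads in BM and PB. Of its exon bases, 35.0% lie in exons of Hoxa11os on the opposite strand, and the strand setting of the counting is not stated in the labels, so its count is uncertain. The Hoxc genes of this group were alike. Hoxc9 had 4.17, 12.6 and 5.03 CPM in MCC, MEF and iPSC and 0.0491 in BM. Hoxc10, a lumbar and hindlimb gene, had 7.64, 20.7 and 10.8 CPM and also 0.0491 in BM. Hoxc11, its neighbour, had 3.56, 12.3 and 6.01 CPM and 0 reads in BM, and none of these Hoxc genes had reads in PB. They were lower in MCC than in MEF by 3.02-fold (2.55 to 3.59), 2.71-fold (2.39 to 3.09) and 3.44-fold (2.87 to 4.14).

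Along the Hoxd cluster the ratio turned from above 1 to below 1 between Hoxd9 and Hoxd10. Hoxd9, on chromosome 2 at 74697727 to 74700208, had 8.31 CPM in MCC against 5.78 in MEF and 11.2 in iPSC, with 0 reads in BM and PB. It was 1.44-fold (1.22 to 1.70) higher in MCC than in MEF. Hoxd10 and Hoxd11, the next genes toward Hoxd13, were at 4.39 and 3.47 CPM in MEF against 1.39 and 1.34 in MCC. They were 3.16-fold (2.36 to 4.30) and 2.58-fold (1.90 to 3.56) lower in MCC.

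Trunk genes, numbered 4 to 8, differed by cluster. The 15 genes summed to 66.9 CPM in MCC and 85.8 in MEF, and 4 of 15 had a ratio above 1. Hoxd8 was the highest Hox gene of MCC, with 28.6 CPM in MCC, 17.3 in MEF, 8.82 in iPSC, 0.0491 in BM and 0 in PB, and was 1.66-fold (1.51 to 1.81) higher in MCC than in MEF. Hoxc8, which helps set the thoracic level, was close in both, at 9.605 and 10.01 CPM, with 2.07 in iPSC, 0.0245 in BM and 0 in PB. The ratio of MCC to MEF was 0.959 (0.836 to 1.10).

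The other trunk genes that reached 5 CPM were lower in MCC, except Hoxb4. Hoxc6, a gene of the neck to thorax boundary, had 6.74 CPM in MCC, 13.99 in MEF, 3.18 in iPSC, 0.0245 in BM and 0 in PB, 2.08-fold (1.80 to 2.40) lower in MCC than in MEF. Hoxb6, Hoxb7 and Hoxb8 lie side by side on chromosome 11. In MCC they had 2.22, 2.75 and 3.33 CPM, in MEF 6.13, 6.96 and 7.49, and in iPSC 4.55, 3.65 and 1.45. Each had at most 1 read in BM and 0 in PB. They were lower in MCC than in MEF by 2.76-fold (2.18 to 3.52), 2.53-fold (2.04 to 3.15) and 2.25-fold (1.84 to 2.75). Hoxa7 had 1.78 CPM in MCC, 5.43 in MEF, 4.42 in iPSC, 2.70 in BM and 0.268 in PB, 3.05-fold (2.35 to 3.997) lower in MCC than in MEF. Part of its exons, 20.4% of the bases, is shared with Hoxaas3 on the opposite strand. Below 5 CPM throughout, Hoxa5, Hoxb5, Hoxc4 and Hoxc5 had ratios from 0.310 to 0.471, and Hoxa4 had one of 1.62 (0.968 to 2.75) from 42 and 26 reads.

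Most genes of the anterior end stood higher in MCC, at levels under 5 CPM in both MCC and MEF. Of the 11 members with a ratio above 1, 6 were numbered 1 to 3, and the others were Hoxa4, Hoxb4, Hoxd4, Hoxd8 and Hoxd9. Numbers 1 to 3 summed to 11.7 CPM in MCC and 6.80 in MEF, 1.72-fold (1.49 to 1.996) higher, and 6 of 7 members with a ratio were above 1. Hoxa2, the selector gene of the second pharyngeal arch, had 4.37 CPM in MCC, 0.717 in MEF, 0.402 in iPSC, 0.0982 in BM and 0.0670 in PB, with 189 against 31 reads in MCC and MEF. With no minimum level it was the single member past 4-fold in this direction, with MCC 6.10-fold (4.16 to 9.23) above MEF, beside 8.32% of all genes by that rule. Of its exon bases, 15.0% are shared with the predicted gene Gm28308 on the same strand.

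Hoxd1, Hoxd3 and Hoxd4 were at low levels in MCC, with 17, 18 and 43 reads against 5, 7 and 20 in MEF. Their ratios were 3.40 (1.21 to 11.8), 2.57 (1.03 to 7.29) and 2.15 (1.24 to 3.86). Hoxd3 and Hoxd4 share 62.3% and 52.3% of their exon bases with each other or with a predicted gene on the same strand. How reads in shared bases were counted is not stated, so their counts are uncertain. Hoxb2 was the member of this end with a ratio below 1, 0.598 (0.406 to 0.873), with 46 against 77 reads. Hoxb3 and Hoxa3 had ratios of 1.44 (1.015 to 2.06) and 1.02 (0.675 to 1.55), and Hoxb3 shares 52.9% of its exon bases with Hoxb3os on the opposite strand. Over the whole family, 16 of 39 members share exon bases with another gene.

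**Figure D2:**
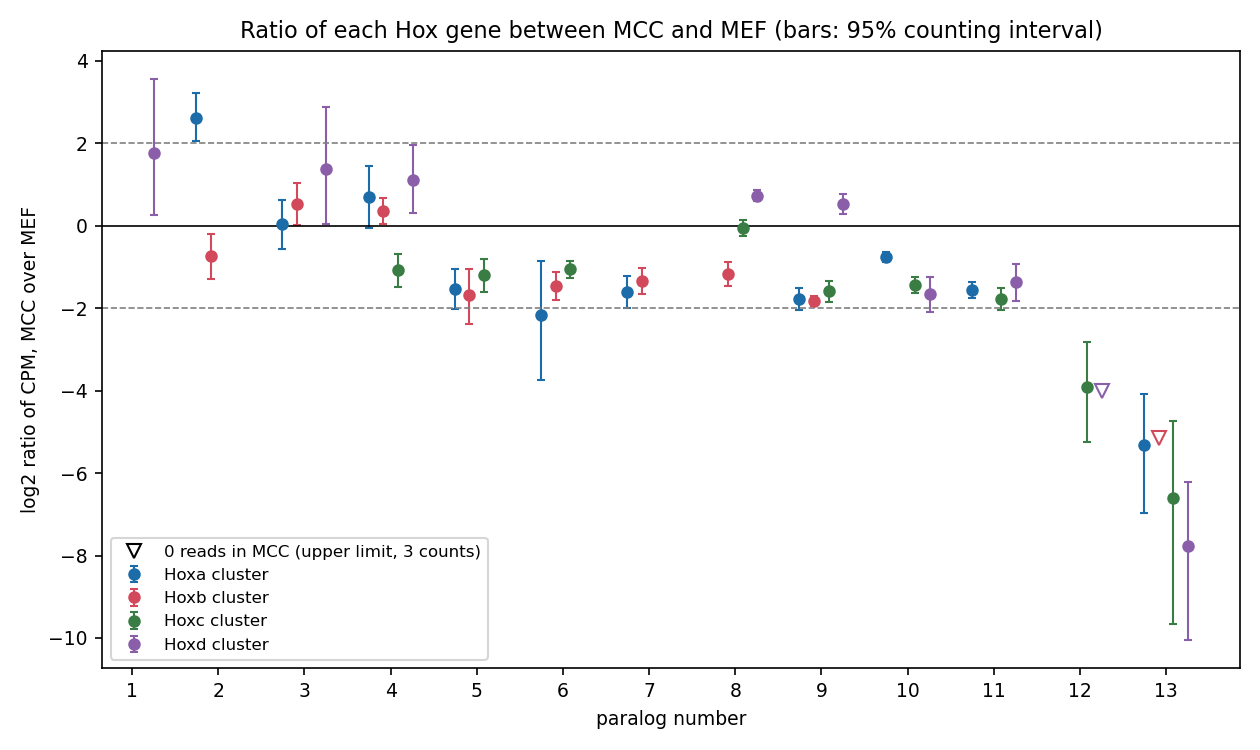
Log2 ratio of CPM between MCC and MEF for 37 Hox genes with a ratio, by paralog number and coloured by cluster, with 95% counting intervals; open triangles are upper limits for genes with 0 reads in MCC, and dashed lines mark 4-fold. Points lie mostly above 0 for numbers 1 to 4, between 0 and −2 for most of 5 to 11, and from −3.91 to −7.76 for 12 and 13.

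The ratio of MCC to MEF thus varied mainly at the ends of the clusters. It was above 1 for most of numbers 1 to 4 and lowest for 12 and 13. In between, the median log2 ratio of single numbers showed no steady fall, at −1.53 for 5, −0.06 for 8 and −1.55 for 11. The median log2 ratio was 0.61 over 7 members numbered 1 to 3, −1.17 over 15 numbered 4 to 8, −1.57 over 10 numbered 9 to 11 and −5.24 over 6 numbered 12 and 13. Over all 38 members, each with more than 3 reads in MCC or MEF, it was −1.35, with 11 above and 27 below 0. The median was 0.0037 over the 21164 genes of the table at that limit, and −0.01 over the 11720 at 5 CPM. Across these 38 genes, Spearman's coefficient between the log2 ratio and the paralog number was −0.78, a description over genes of the same pair of libraries. It was −0.75 in cluster a, −0.78 in b, −0.83 in c and −0.98 in d, over 11, 9, 9 and 9 genes. Without numbers 12 and 13 it was −0.63 over 32 genes, without 1 to 3 it was −0.66 over 31, and over the 25 genes from 4 to 11 it was −0.36. The coefficient was thus smaller in the middle of the clusters than over their full length. By cluster, summed CPM in MCC and MEF were 43.3 and 85.4 for a, 31.7 and 86.3 for b, 35.6 and 84.6 for c, and 41.5 and 47.9 for d. Cluster d had the highest ratio, 0.868 (0.814 to 0.925), and cluster b the lowest, 0.367 (0.345 to 0.391). The 25 fibroblast and matrix markers had a median log2 ratio of −0.59. Their summed level had a ratio of 0.932, in which Col3a1 (11734 CPM in MCC, 1770 in MEF) weighs heavily.

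The make-up of the Hox signal shows the same difference within each library, free of the scaling between libraries. With each gene divided by its exon length, numbers 12 and 13 took 0.419% of the Hox signal in MCC against 11.1% in MEF and 28.6% in iPSC. Numbers 9 to 11 took 47.5%, 57.8% and 43.7%, numbers 4 to 8 took 44.05%, 29.3% and 22.3%, and numbers 1 to 3 took 7.9999%, 1.80% and 5.33%. Without division by exon length, numbers 12 and 13 took 0.259% in MCC, 9.94% in MEF and 20.7% in iPSC. Per kb of exon, Hoxd8 led in MCC at 10.4 CPM per kb, followed by Hoxa10 at 6.41 and Hoxb9 at 6.02. In MEF Hoxb9 led at 21.3, followed by Hoxa10 and Hoxc10, both at 10.9, and in iPSC Hoxc12 led at 12.6 CPM per kb. Across the 39 genes, Spearman's coefficient of the level per kb was 0.67 between MCC and MEF, 0.82 between MEF and iPSC and 0.49 between MCC and iPSC. These are descriptions over genes that share gene models and library depth.

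**Figure D3:**
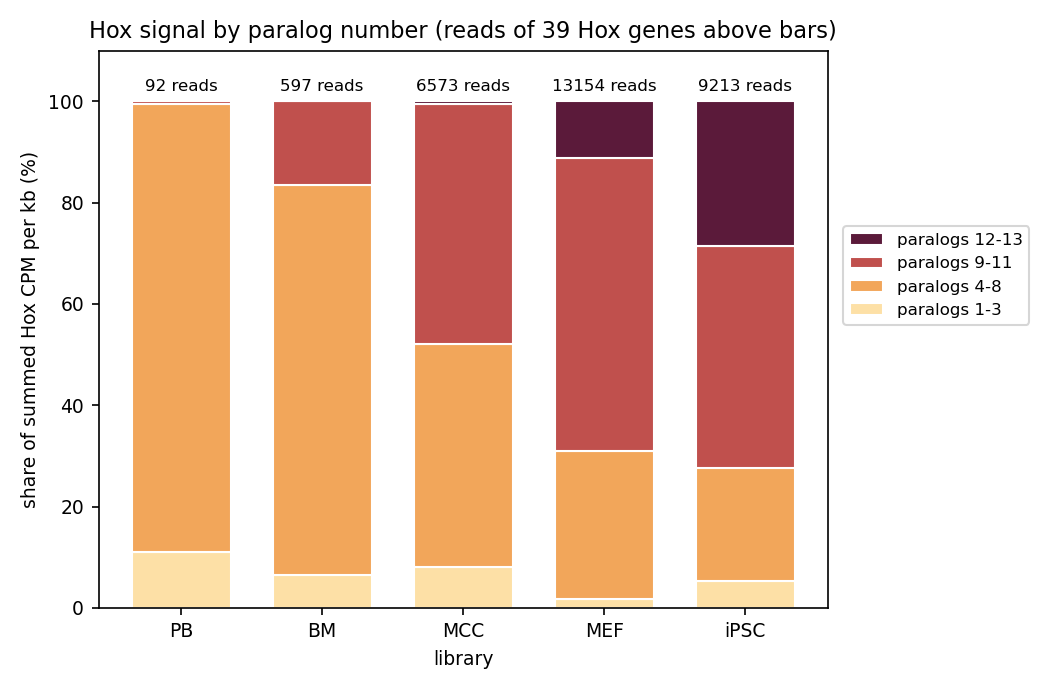
Share of the summed Hox signal (CPM per kb of exon, in percent) by paralog number in each library, with the reads of the 39 genes above each bar. Numbers 12 and 13 take 11.1% in MEF and 28.6% in iPSC but 0.419% in MCC, and PB and BM are mostly numbers 4 to 8, from 92 and 597 reads.

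Bone marrow and blood were the native references, and more Hox genes stood at 1 CPM or more in MCC, 26 against 3 in BM and 1 in PB. In BM, 3 members reached 1 CPM. Hoxb4, which supports blood stem cell renewal, was highest at 5.33 CPM, with 1.74 in PB, 4.33 in MCC, 3.38 in MEF and 1.59 in iPSC. Hoxa9 and Hoxa7 were the other ones, at 3.68 and 2.70 CPM. For these genes MCC and BM were close. Hoxa9 had 151 reads in MCC and 150 in BM, a ratio of 0.949 (0.752 to 1.20). Hoxb4 had a ratio of 0.812 (0.665 to 0.993) and Hoxa7 one of 0.660 (0.487 to 0.891). In BM, clusters c and d together were nearly silent, with 7 and 2 reads, against 1537 and 1795 in MCC.

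Of 9 members at 5 CPM or more in MCC or BM, 8 passed the 4-fold rule toward MCC and 0 toward BM, beside 15.6% higher and 13.5% lower of all genes at that level. They were Hoxa10, Hoxa11, Hoxb9, Hoxc6, Hoxc8, Hoxc10, Hoxd8 and Hoxd9. All 8 entered this count through their level in MCC, since Hoxb4 alone reached 5 CPM in BM and no member did in PB, so the direction of the count was set by the minimum level. Hoxb9 had 670 reads in MCC and 1 in BM, a ratio of 632 (113 to 24986), and Hoxd9 had 359 and 0 reads, at least 113-fold higher. Without a minimum, 25 members were higher and 0 lower, beside 13.7% and 14.9% of all genes. Against PB the same 8 members were the ones at 5 CPM, again through MCC, and 8 were higher, beside 21.5% higher and 15.4% lower of genes at that level. Without one, 29 were higher and 0 lower, beside 17.1% and 19.7%. Both comparisons use the MCC library, so they are not separate evidence. Between the native libraries, Hoxa9 and Hoxa7 were higher in BM than in PB, with 150 against 1 read (a ratio of 110, 19.4 to 4373) and 110 against 8 reads (10.1-fold, 4.94 to 23.9). Neither reached 5 CPM, so 0 members passed the rule in either direction, beside 9.68% higher and 6.32% lower of all genes. Without a minimum these 2 were the members called, beside 8.66% higher and 9.01% lower of genes. The library code of PB lies outside the run of the other codes, what the code stands for is not stated, and any batch cannot be told apart from the group.

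The iPSC library had reads for all 39 members, 30 of them at 1 CPM or more, with only 2 reads for Hoxd3 and 3 for Hoxd12. Its 39 genes summed to 176 CPM, so that MEF was 1.73-fold (1.68 to 1.77) higher, whereas the summed fibroblast and matrix markers were 9.55-fold higher in MEF. The part of fibroblast RNA in the iPSC values was not tested. The highest library was iPSC for 10 members. Hoxc12 was 5.37-fold (4.36 to 6.65) higher in iPSC than in MEF. Col1a1, a fibroblast collagen gene, was at 169.8 CPM in iPSC and 8923 in MEF. Of 20 members at 5 CPM in MEF or iPSC, 3 (Hoxb8, Hoxc6 and Hoxc8) were at least 4-fold higher in MEF and 1 (Hoxc12) lower. Over all genes at that level 6.37% were higher and 8.83% lower. Hoxb8, Hoxc6 and Hoxc8 were under 5 CPM in iPSC and Hoxc12 in MEF, so the minimum level set these directions. Under scaling by total counts the split was 1 higher and 2 lower. With no minimum level it was 6 and 2, beside 5.89% and 12.8% of genes.

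Set against iPSC, MCC was again near 0 for numbers 12 and 13. Of 16 members at 5 CPM, 5 were at least 4-fold lower in MCC (Hoxa9, Hoxb13, Hoxc12, Hoxc13 and Hoxd13) and 1 higher (Hoxc8, 4.65-fold, 3.75 to 5.80), beside 9.77% lower and 11.3% higher of all genes. The 5 were under 5 CPM in MCC and Hoxc8 was under 5 CPM in iPSC, so the minimum level set these directions. With DESeq2 size factors 3 were lower, and with total counts 0 were higher. With no minimum level 5 were higher and 7 lower, beside 9.82% and 13% of genes. Hoxd13 was 176-fold (60.1 to 857) lower and Hoxc12 80.4-fold (38.8 to 201) lower in MCC than in iPSC. The ParaHox genes, relatives of the Hox clusters that include the Cdx activators of posterior Hox genes, were at 0 reads in MCC for 6 of 6. In iPSC, Cdx2 and Cdx1 stood at 35.2 and 15.9 CPM, and in MEF at 0 and 0.0925.

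Hox proteins bind DNA together with partner homeodomain proteins of the TALE class, the Pbx, Meis and Pknox families. Of 9 such genes, 8 reached 5 CPM in MCC or MEF and 0 passed the 4-fold rule in either direction, with a median log2 ratio of 0.11. With 8.05% higher and 2.71% lower over all genes, a count of 0 among 8 is near the background. Pbx2 stood at 48.8 CPM in MCC, 38.0 in MEF and 105 in BM. Against BM, Meis1, Meis2 and Meis3 passed the rule toward MCC and 0 toward BM, of 8 at 5 CPM, beside 15.6% and 13.5% of all genes. These Meis genes were under 5 CPM in BM and entered the count through MCC, so the minimum level set their direction. Meis1, the partner of Hoxa9 in blood progenitors, stood at 38.8 CPM in MCC, 22.8 in MEF, 4.84 in BM, 3.62 in PB and 3.96 in iPSC.

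Among other positional transcription factors of limb and trunk, some were lower in MCC, hindlimb factors among them, and others were level or higher. Of 46 listed, 25 reached 5 CPM in MCC or MEF, 6 were at least 4-fold lower in MCC and 1 higher, beside 2.71% and 8.05% of all genes. As for the posterior Hox genes, a difference in the starting fibroblasts cannot be told apart from these values. The highest were Prrx1, a limb mesenchyme factor, at 190 CPM in MCC and 285 in MEF, Prrx2 at 141 and 59.3 CPM, and Tbx15 at 132 and 103 CPM. The 7 past the rule are named after their values were seen. The 6 lower ones were under 5 CPM in MCC and the higher one was under 5 CPM in MEF. The minimum level thus set the direction of each in the count. Pitx1 and Tbx4, which specify the hindlimb, had 9.48 and 10.1 CPM in MEF against 0.185 and 0.231 in MCC. MCC was lower by 51.2-fold (25.7 to 119) for Pitx1 and by 43.6-fold (23.5 to 91.5) for Tbx4. Isl1, a factor of early hindlimb mesenchyme, was 4.73-fold (3.43 to 6.66) lower. Alx4, Meox1 and Six2 were 12.99-fold (8.64 to 20.4), 15.5-fold (9.47 to 26.9) and 11.99-fold (7.75 to 19.5) lower. Tbx5, the forelimb factor, was at 2.43 and 7.52 CPM, a ratio of 0.323 (0.257 to 0.404). Barx1, a factor of the pharyngeal arches and the stomach, was 16.1-fold (11.1 to 24.1) higher in MCC, at 11.2 against 0.694 CPM. Over all 25 the median log2 ratio was −0.69.

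**Figure D4:**
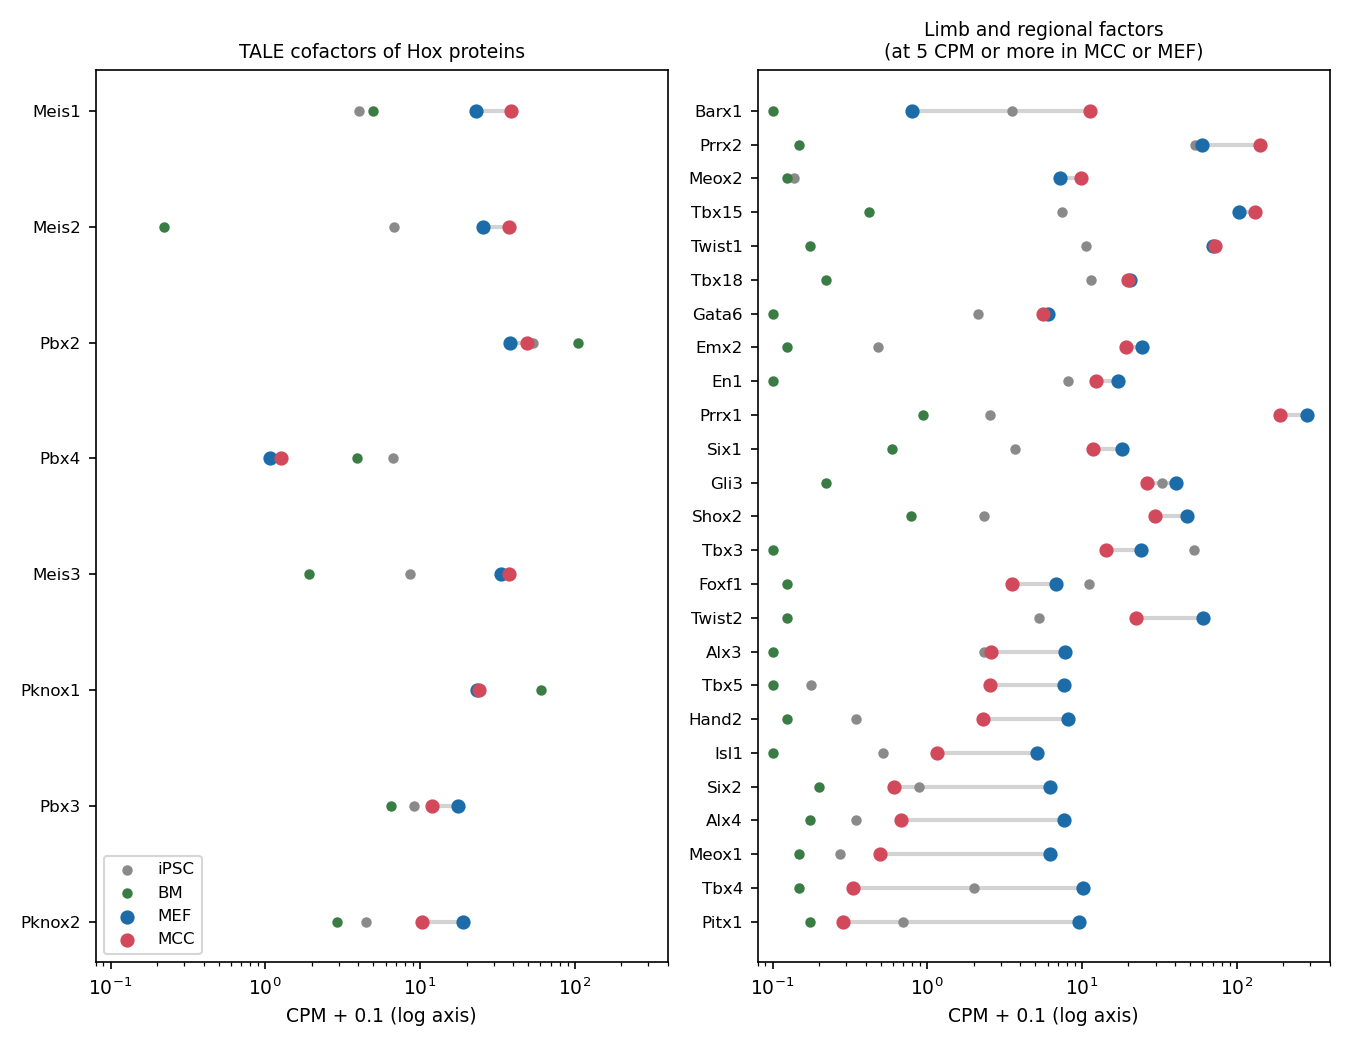
CPM + 0.1 on a log axis for 8 TALE partner genes (left) and the 25 limb and regional factors at 5 CPM or more in MCC or MEF (right), with points for MCC, MEF, BM and iPSC and a grey bar joining MCC and MEF. The MCC and MEF points lie close for the TALE genes, whereas Pitx1 and Tbx4 in MCC sit near the BM points.

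Noncoding genes of the clusters, and the chromatin regulators of Hox genes, were read last. Of 19 noncoding and Evx genes of the Hox regions in the table, 2 reached 5 CPM in MCC or MEF, 1 of which was lower by the rule, beside 2.71% of all genes. Hoxa11os, antisense to Hoxa11, stood at 1.67 CPM in MCC and 8.37 in MEF, 5.02-fold (3.89 to 6.56) lower, and Gm53 at 7.94 and 14.01 CPM. Hoxa11os entered the count through MEF, so the minimum level set its direction. Hoxaas2, which shares exon bases with Hoxa3 on the opposite strand, had 155 reads in MCC and 11 in MEF (3.59 and 0.254 CPM), 14.1-fold (7.67 to 28.8) higher. It stayed below 5 CPM, and with no minimum level 8.32% of all genes were at least 4-fold higher. Since the strand setting is not stated, its count is uncertain. Polycomb proteins hold Hox genes silent, and trithorax proteins keep them active. Of 22 Polycomb genes and 16 genes of the trithorax group and the H3K27 demethylases, all reached 5 CPM in MCC or MEF. None of them passed the 4-fold rule between these libraries, with median log2 ratios of −0.17 and −0.29, beside 8.05% higher and 2.71% lower of all genes. The Polycomb gene Cbx7 was just under the cut, at 6.92 CPM in MCC and 1.76 in MEF, a ratio of 3.94 (3.05 to 5.13). The highest Polycomb genes were Cbx6, at 191 CPM in MCC and 91.6 in MEF, and Phc2, at 82.8 and 191 CPM. Of the trithorax group, Ash2l (65.7 against 79.8 CPM) and Kmt2d (64.8 against 62.8) were highest in MCC, and Mllt1 (61.2 against 85.9) and Ash2l in MEF.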

How the data were processed

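Polyadenylated RNA of 5 mouse libraries, 1 per group, was sequenced. Per the labels' protocols, total RNA was extracted with Trizol. The authors deposited whole-number read counts per gene symbol, not normalized. STAR, featureCounts and mm10 are named in the submitters' processing notes, and no source used here states versions, annotation, strand setting or filters. The 5 columns were matched to libraries by their library codes.

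TMM scaling of the library sizes used edgeR 4.0.16 (R 4.3.3). Ratios, intervals and plots were made with Python 3.11.15, scipy 1.17.1, pandas 2.3.3, numpy 2.4.6 and matplotlib 3.10.9. A gene was called at a CPM ratio of at least 4 with at least 5 CPM in the higher library, counts under 3 set to 3. A gene that reached 5 CPM in a single library of a comparison could be called only toward that library. Intervals are exact (Clopper-Pearson, conditional binomial, 95%) and cover counting error only, since reads without molecular identifiers are not independent molecules. A ratio against 0 reads uses a floor of 3 counts in that library. Exon lengths, positions and overlaps came from GENCODE M21 (mm10), and promoter windows from RefSeq on GRCm38.p6.

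The call was tested on simulated counts with 34970 genes in 6 comparisons, with 8-fold changes put into 100 genes in each direction. All 100 were recovered in each direction, 0 unchanged genes were called, and 94.9% (MCC against MEF) to 95.7% (MCC against PB) of intervals held the true ratio. The changed genes averaged at least 8 times the 5 CPM minimum, which no Hox member did, and counts were drawn with counting error alone. Recovery at the levels of the Hox members, or with spread between replicates, was therefore not tested. The Hox members and the 14 gene lists beside them were chosen with earlier results of these data known. Values in every library are given for members at 5 CPM or more in some library. From a list described, the 2 highest members in each library compared are named, with those past the 4-fold rule where they are 5 or fewer. Any further gene was picked with its values known. One Hox gene and one partner gene are not reported here by name or drawn singly, although sums, medians and counts include them. The alternatives were DESeq2 1.42.0 size factors, total counts, no minimum level, 20 CPM, 2-fold, 8-fold, and a call on the bound of the counting interval. The counting bound with no minimum level, and the removal of members sharing exon bases, were added after seeing the data.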

Additional observations from a re-analysis of the deposited data

How the results depend on the processing

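No paired analysis was possible because each group has 1 library. No other library of a group could be left out either. Counts of members called depended mainly on the level and fold required, and their cause beyond that construction was not tested. For MCC against MEF (0 higher, 1 lower), no minimum level gave 1 and 7, the counting bound without minimum 1 and 6, 2-fold 12 lower and 20 CPM 0 lower. Against BM and PB (8 higher each), no minimum gave 25 and 29 higher, the bound without minimum 23 and 23, and 20 CPM 2 and 2. For MCC against iPSC (1 higher, 5 lower), DESeq2 size factors gave 3 lower and no minimum 5 higher. There 2-fold gave 3 higher, total counts, 8-fold and the counting bound each 0 higher, and 20 CPM 0 and 0. For MEF against iPSC (3 higher, 1 lower), total counts gave 1 and 2, no minimum 6 and 2, 2-fold 8 and 3, the bound 1 higher, and 8-fold and 20 CPM 0 and 0. For BM against PB (0 and 0), no minimum gave 2 higher, the bound without minimum 2 and 2-fold 1. The median log2 ratio of numbers 1 to 3 between MCC and MEF, 0.61, was 1.77 without members sharing exon bases, which leaves only Hoxd1. No median changed sign under any setting run. Total counts in place of TMM shifted every log2 ratio by −0.03 between MCC and MEF, −0.14 between MCC and BM, −0.13 between MCC and PB, −0.39 between MCC and iPSC and −0.36 between MEF and iPSC. With DESeq2 size factors the shift was −0.28 between MCC and PB and −0.18 between BM and PB.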

Other observations

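Retinoic acid sets the anterior limits of Hox expression in the embryo, and genes that make, bind or break it down differed one by one between MCC and MEF. Of 19 listed, 13 reached 5 CPM in MCC or MEF, of which 2 passed the 4-fold rule upward in MCC and 1 downward, beside 8.05% and 2.71% of all genes. Aldh1a1, an enzyme that makes retinoic acid, stood at 23.1 CPM in MCC and 0.393 in MEF, 58.7-fold (36.5 to 101) higher, beside 74.9 CPM in PB and 69.9 in BM. Aldh1a3, another such enzyme, was 9.13-fold (7.26 to 11.6) lower, at 1.90 against 17.3 CPM. Dhrs3, a retinaldehyde reductase, was 5.29-fold (4.91 to 5.71) higher. Aldh1a1 was under 5 CPM in MEF and Aldh1a3 in MCC, so the minimum level set their directions in the count. The highest genes were the binding protein gene Crabp1, at 614 CPM in MCC and 1681 in MEF, the receptor gene Rxra in MCC, at 139 and 74.6 CPM, and Rarg in MEF, at 61.5 and 99.4 CPM.

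Signals of the outer limb bud were also read. Of 21 listed genes, 7 reached 5 CPM in MCC or MEF, 3 were at least 4-fold lower in MCC and 0 higher, beside 2.71% and 8.05% of all genes. Grem1, a BMP antagonist of the limb bud, stood at 11.1 CPM in MCC and 291 in MEF, 26.2-fold (23.9 to 28.8) lower. Jag1, a Notch ligand, at 14.4 against 71.0 CPM, was 4.94-fold (4.53 to 5.39) lower and the ephrin receptor gene Epha3 4.74-fold (4.24 to 5.31) lower. Fgf10, the limb outgrowth factor, was highest of the list in MCC, at 39.4 CPM against 11.7, and Epha4 followed at 18.6 and 14.7 CPM. Of 16 blood stem and progenitor genes, 10 reached 5 CPM in MCC or MEF, 5 were higher in MCC by the 4-fold rule and 0 lower, beside 8.05% and 2.71% of all genes. They were Cd34 (201 CPM in MCC, 18.4 in MEF), Lyl1 (109 and 0.301), Lmo2 (76.7 and 0.231), Cd48 (64.7 and 0.0231) and Tal1 (16.6 and 0). All but Cd34 were under 5 CPM in MEF, so the minimum level set their direction in the count. Runx1 and Meis1 were highest in MEF, at 91.5 and 22.8 CPM, against 43.4 and 38.8 in MCC. Kit, Flt3 and Myb had 0 reads in MCC, whereas Hoxa9 and Hoxb4 were at levels close to those of BM. Those Hox genes were not particular to blood, at 12.05 and 3.38 CPM in MEF and 15.4 and 1.59 in iPSC.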
